A study of Danio rerio with 4 samples.

Results

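The genes of the DNA replication machinery were taken by symbol from the protein-coding genes of the deposited tables. The rule took symbols beginning with mcm and a digit, orc1 to orc6, gins1 to gins4, rfc1 to rfc5, rpa1 to rpa3, the pola, pold and pole polymerase symbols, prim1, prim2, rrm1 and rrm2, together with pcna, cdc6, cdc45, cdt1, lig1, fen1, tipin, timeless and chaf1b. It found 55 members among 26381 protein-coding genes and 42298 genes in all. RNA-seq was carried out on mCherry-positive cells obtained by FACS from whole zebrafish larvae at 5 dpf (days post-fertilization) that had been dissociated into single cells. All larvae carried the transgene Tg(ins:mCherry), in which an insulin promoter drives a red fluorescent protein, and the labels call the sorted fraction enriched in β-cells, the insulin-producing cells of the pancreatic islet. The experiment comprised 2 wild-type libraries and 2 libraries of the genotype alms1-/-, whose allele is not given in the sources used here. The gene alms1 encodes a protein of the centrosome and the base of the cilium, and loss of its human counterpart causes Alström syndrome, in which diabetes is common. The methods state that larvae were pooled for sorting and that samples were made in duplicate, but not whether duplicates came from separate sorts or clutches, and the p-values given here therefore cover the variation among these 4 libraries alone, part or all of which may be technical.

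Replication of the genome is prepared in G1 phase, when the origin recognition complex together with Cdc6 and Cdt1 loads the ring-shaped helicase formed by Mcm2 to Mcm7 onto DNA. In S phase the helicase is activated by binding of Cdc45 and the GINS complex, polymerase α and its primase start each new strand, and polymerases ε and δ, held on DNA by the sliding clamp Pcna, extend it. Transcripts of many of these genes are made in dividing cells under control of E2F factors and are low in resting cells. β-cells of the larval islet divide at a low rate, whereas larval skin, gut and nervous system contain many cycling cells.

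The libraries held 42761199 to 50467517 counted reads, of which 40198444 to 47803425 mapped to a unique place. The targeted gene alms1 had 22.8 and 17.4 CPM (reads scaled to each library's counted reads) in wild type against 10.4 and 23.1 in mutants, so that the groups overlapped. What the allele does to the transcript is not given, and these values are no check of the labels. Of 15 β-cell markers, 6 were detected in both wild-type libraries, the 15 together held 0.0139% and 0.0102% of wild-type reads and 0.0269% and 0.0288% of mutant reads, and ins itself had 20 and 61 wild-type reads and 534 and 447 mutant reads. Markers of the other cell types named next held larger shares, apart from leukocyte markers in the mutants, and also moved with genotype. All 12 skin keratinocyte markers were detected, with 4.77% and 3.55% of reads in wild type against 0.628% and 0.639% in mutants, while 6 of 8 erythroid markers, those with an entry, held 0.895% and 1.32% against 3.07% and 2.02%. The 12 muscle markers held 0.236% and 0.243% against 0.936% and 0.694%, those 7 of 8 acinar markers with an entry 0.0651% and 0.0805% against 0.388% and 0.272%, and 8 leukocyte markers 0.0493% and 0.0407% against 0.0251% and 0.0244%. The part of these markers' cells in the results on replication genes was not tested, and in such bulk samples fewer cells of a type and less RNA per cell cannot be told apart.

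In wild type 48 of the 55 members (87.3%) were detected, meaning at least 10 reads and 1 TPM (TPM are reads per kb of gene, relative to the sum of these over all genes) in both libraries, beside 64.0% of all protein-coding genes. The clamp gene pcna had the highest level, at 183 ± 13.1 TPM (SD, n = 2). In wild-type libraries 1 and 2 it reached or exceeded 98.5% and 98.6% of all genes, protein-coding or not, with any read there. It was followed by pole3, a histone-fold subunit of polymerase ε, at 84.7 ± 11.4 TPM and by the helicase gene mcm7 at 39.3 ± 9.99 TPM. The next levels were 25.7 ± 9.74 TPM for rrm2_2, a small subunit gene of ribonucleotide reductase, and 21.9 ± 12.4, 18.8 ± 11.9, 18.7 ± 7.25, 16.8 ± 7.95 and 15.1 ± 7.40 TPM for mcm5, mcm2, mcm6, mcm4 and mcm3. From mcm7 to mcm3 the wild-type TPM of neighbours in this order overlapped. In TPM only pcna and pole3 stood apart by more than their spread. Gene length here is the whole span, introns included, so that this order is not an order of transcript number. In wild-type libraries 1 and 2 pole3 had 2137 and 2176 reads over 2593 bp. The mcm4 gene had more reads, 4984 and 3067, over 25011 bp. All 6 genes of the core helicase had a higher TPM in wild-type library 1 than in library 2. So did every other member with reads except gins3, pole4, rfc5 and rpa3, so that this is not particular to the helicase.

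The members that were not detected in wild type were cdc45, mcm10, mcm3l, mcm6l, mcm8, orc2_2 and pole2. Of these, cdc45, mcm10, mcm3l, mcm6l and mcm8 had 75 to 268 reads per wild-type library. They missed only the limit of 1 TPM, which divides reads by spans of 15940 to 39722 bp, introns included. The polymerase ε subunit gene pole2 had 0 reads in all 4 libraries, and a count of 0 allows up to 3 reads per library. It lies wholly inside ppp1r21 on the same strand, so that reads of the pair are not separable. The second orc2 entry, orc2_2, lies on a sequence that is not placed on a chromosome and had 16 and 3 reads in wild type against 4 and 1 in mutants, too few to be tested.

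**Figure D1:**
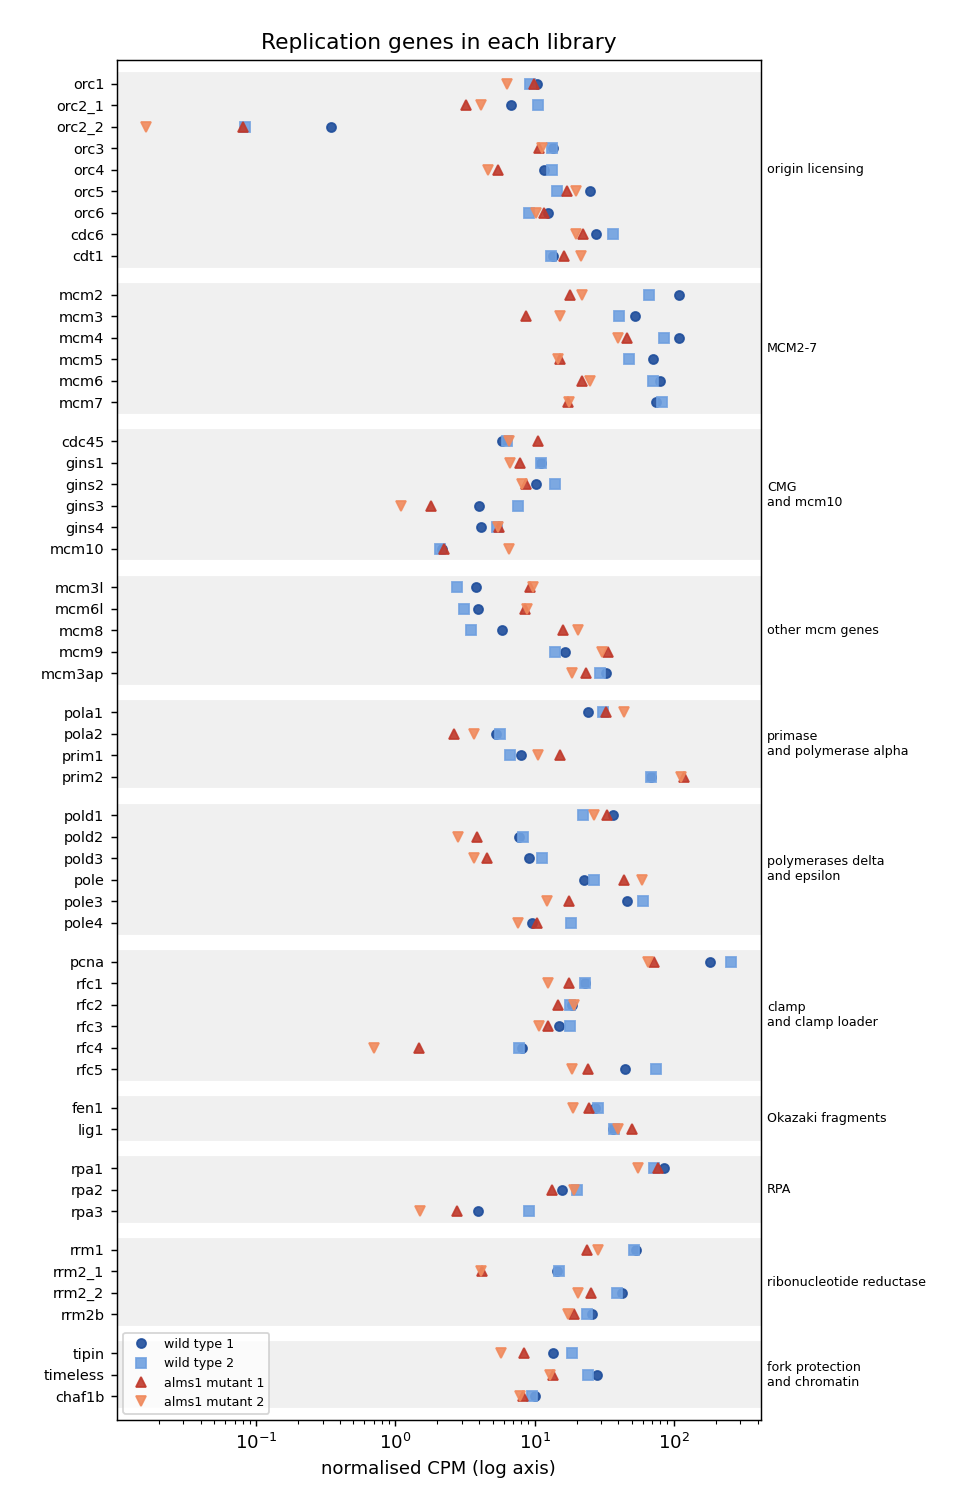
Normalised CPM (CPM after TMM scaling of library sizes, log axis) of 54 replication genes in each of the 4 libraries, ordered by role, with circles and squares for wild-type libraries 1 and 2 and triangles for alms1 mutant libraries 1 and 2; pole2, with 0 reads, cannot be shown. The wild-type points of mcm2 to mcm7 and pcna lie to the right of both mutant points, and those of mcm3l, mcm6l, mcm8 and mcm9 lie to the left.

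The 2 mutant libraries were then compared with the 2 wild-type libraries over all 28079 genes with enough reads, with the quasi-likelihood test of edgeR and Benjamini-Hochberg adjusted p-values, and a gene was called at an adjusted p of at most 0.05. Of 53 members tested on all reads, 20 were lower and 6 were higher in the mutants and 27 did not pass. Over all genes tested, 24.3% were called lower and 19.2% higher. The members' median log2 fold change was -0.56, beside 0.03 for all genes. The 20 lower members included all 6 genes of the core helicase, the clamp gene pcna, 2 of 5 clamp loader genes and 3 of 4 ribonucleotide reductase genes, and the 6 higher members were mcm8, mcm3l, mcm6l, pole, mcm9 and prim2. Without either mutant library, which leaves 1 in that group, fewer members and a smaller share of all genes were called. The members' median log2 fold change was -0.42 without mutant library 2, beside -0.03 for all genes. Without mutant library 1 it was -0.67, beside 0.03. Members called lower with either mutant library left out were mcm2, mcm3, mcm5, mcm6, mcm7, pcna, pole3, rfc4 and rrm2_1, whereas pold2 lost its call whichever of the 4 libraries was left out. The genes mcm7, rfc4 and mcm8 kept their call under every alternative on all reads in which they were tested. For rfc4 and mcm8 this includes 1 alternative, a subtraction described below, in which libraries of 1 group fell to 0 reads.

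**Figure D2:**
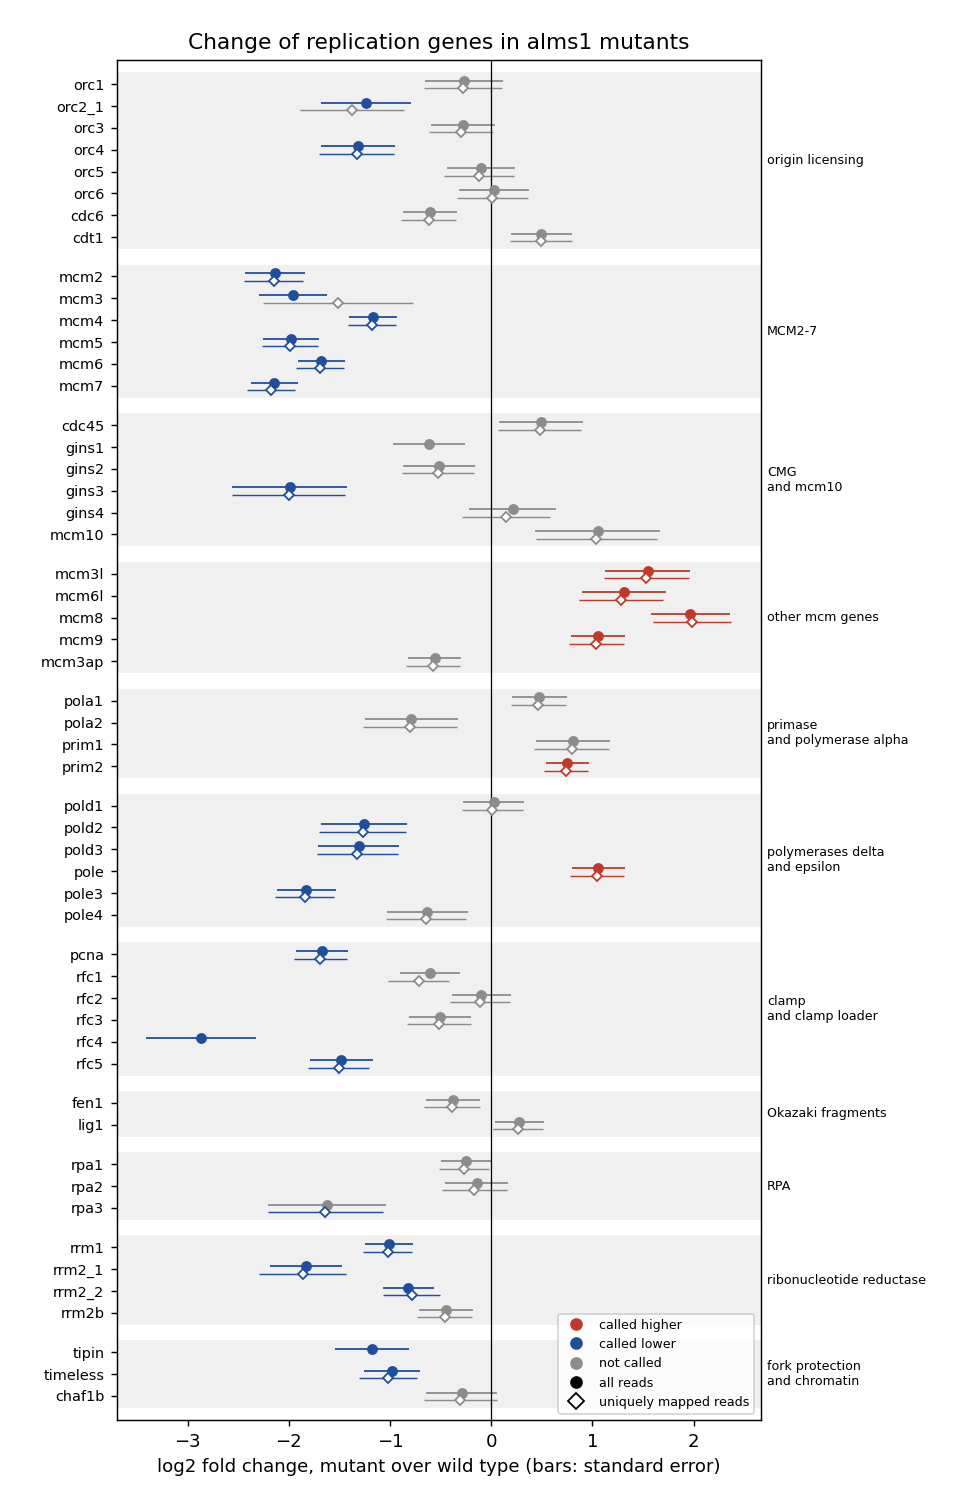
Log2 fold change of mutant over wild type for the replication genes, ordered by role, with bars of 1 standard error; filled circles are all reads and open diamonds uniquely mapped reads, coloured by call at an adjusted p of 0.05. Every gene of the core helicase lies below 0, while 4 of the 5 other mcm genes, prim2 and pole are called above 0.

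The 6 genes of the core helicase, mcm2 to mcm7, were each lower in the mutants. Normalised CPM, which are CPM after TMM scaling of library sizes, were 110 and 66.2 in wild type against 18.0 and 22.0 in mutants for mcm2 (chromosome 22, 5603965 to 5624937, GRCz10). The lower wild-type library was thus above both mutants, and the difference was 4.40-fold (log2 fold change -2.14 ± 0.30 SE, edgeR adjusted p = 0.00142). For mcm7 (chromosome 14, 150202 to 158517) the values were 74.2 and 81.6 against 17.5 and 17.8, a 4.42-fold difference with both libraries of each group close together (log2 fold change -2.14 ± 0.23, edgeR adjusted p = 0.000663). The mcm5 gene (chromosome 3, 25868606 to 25880569) had 70.5 and 47.9 against 15.3 and 14.8 normalised CPM, or 3.94-fold less (log2 fold change -1.98 ± 0.28, edgeR adjusted p = 0.00143). These groups were far apart, although wild-type library 1 exceeded library 2 for mcm2 and mcm5.

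A smaller difference was measured for mcm6 (chromosome 6, 12733288 to 12750532), at 79.1 and 71.3 against 22.0 and 25.0 normalised CPM (log2 fold change -1.68 ± 0.23, edgeR adjusted p = 0.00137). The mcm4 gene (chromosome 24, 35648565 to 35673575) fell least, from 108 and 85.3 to 46.3 and 39.9 normalised CPM (log2 fold change -1.17 ± 0.24, edgeR adjusted p = 0.0057). With scaling to library totals alone mcm4 was no longer called (edgeR adjusted p = 0.0889), nor was it without mutant library 2. For mcm3 (chromosome 20, 34867401 to 34880864) normalised CPM were 52.6 and 40.3 against 8.63 and 15.3 (log2 fold change -1.95 ± 0.34, edgeR adjusted p = 0.00305). This value needs care, because stmn4 on the other strand covers 75.0% of mcm3 and only 14.4% of its reads were uniquely mapped. Unique reads of mcm3 were 458 and 62 in wild type against 71 and 165 in mutants, so that on unique reads the groups overlapped and the test was not passed (log2 fold change -1.51 ± 0.74, edgeR adjusted p = 0.117). As a share of all counted reads, the 6 genes together held 0.0452% and 0.0296% in wild type against 0.0147% and 0.0169% in mutants. All 55 members together held 0.146% and 0.122% against 0.121% and 0.125%, which overlapped between groups.

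Of the 5 other genes whose symbols begin with mcm, 4 were higher and mcm3ap was not called. MCM8 and MCM9 form a separate helicase that acts in recombination repair in mammals, and mcm3l and mcm6l are zebrafish entries named as like mcm3 and mcm6. The mcm8 gene (chromosome 17, 4167589 to 4207310) had 5.81 and 3.48 normalised CPM in wild type against 16.0 and 20.4 in mutants, a 3.91-fold rise (log2 fold change 1.97 ± 0.39, edgeR adjusted p = 0.00515). For mcm3l (chromosome 20, 6526576 to 6542515) the values were 3.77 and 2.75 against 9.26 and 9.80 (log2 fold change 1.54 ± 0.42, edgeR adjusted p = 0.0178). In both genes each mutant library was above each wild-type library. Values of mcm6l (chromosome 2, 50465508 to 50491283) were 3.94 and 3.09 against 8.57 and 8.86 (log2 fold change 1.31 ± 0.41, edgeR adjusted p = 0.0325), and those of mcm9 (chromosome 20, 41904878 to 41942533) were 16.6 and 14.1 against 33.5 and 30.4 (log2 fold change 1.05 ± 0.26, edgeR adjusted p = 0.0133). Of these 4, mcm8 alone was still called when either mutant library was left out. The symbol mcm3ap, whose human counterpart encodes a messenger RNA export factor that binds MCM3, met the rule by name only and had 32.6 and 29.3 against 23.3 and 18.6 normalised CPM (log2 fold change -0.56 ± 0.26, edgeR adjusted p = 0.113).

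Of the origin licensing genes, 8 were tested and 2 were lower, near the 24.3% of all genes called lower. The origin recognition subunit gene orc4 (chromosome 6, 894094 to 907794) fell from 11.7 and 13.4 to 5.45 and 4.63 normalised CPM (log2 fold change -1.32 ± 0.37, edgeR adjusted p = 0.0201). The subunit gene orc2_1 (chromosome 11, 44901477 to 44936068) had 6.76 and 10.6 against 3.22 and 4.11 (log2 fold change -1.24 ± 0.44, edgeR adjusted p = 0.0491), but it was not called on unique reads (edgeR adjusted p = 0.0507). On the other strand mafgb, itself higher (log2 fold change 1.27 ± 0.36, edgeR adjusted p = 0.0227), covers 41.3% of orc2_1, and pycr1b, itself lower (-1.94 ± 0.49, edgeR adjusted p = 0.014), covers 22.0%. The pycr1b gene lies wholly inside orc2_1 and had no unique read, so that its value rests on reads not assigned to it alone. Of 12 alternatives on all reads, orc4 kept its call in 7 and orc2_1 in 3. The mutants lay below wild type for orc4 and orc2_1, and the other subunit genes orc1, orc3, orc5 and orc6 had log2 fold changes of -0.27, -0.28, -0.10 and 0.03, none called. Of the helicase loaders, cdc6 had 27.5 and 36.5 normalised CPM against 22.1 and 19.9 (log2 fold change -0.61 ± 0.27, edgeR adjusted p = 0.0971), and cdt1 had a log2 fold change of 0.49 ± 0.30. The orc6 values of 12.4 and 9.04 against 11.6 and 10.3 normalised CPM overlapped between groups.

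Cdc45 and the 4 GINS subunits complete the active helicase, and Mcm10 assists its activation. Of these 6 genes gins3 alone was called, at 3.97 and 7.59 normalised CPM in wild type against 1.80 and 1.11 in mutants (log2 fold change -1.99 ± 0.57, edgeR adjusted p = 0.022). Over all genes tested 24.3% were lower and 19.2% higher. The gins1 values were 11.1 and 11.0 against 7.82 and 6.65 (log2 fold change -0.61 ± 0.35, edgeR adjusted p = 0.186). That gene lies wholly inside srbd1 on the same strand and had no unique read. Log2 fold changes of cdc45, gins2 and gins4 were 0.49, -0.51 and 0.21. For mcm10 the 2 mutant libraries stood apart, with 110 and 405 reads beside 100 and 75 in wild type (log2 fold change 1.05 ± 0.61, edgeR adjusted p = 0.192).

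Among the 4 genes of polymerase α and its primase, which lay the first nucleotides of each strand, the large primase subunit gene prim2 (chromosome 13, 23357847 to 23481949) was higher. It had 68.4 and 68.8 normalised CPM in wild type against 119 and 113 in mutants, a 1.69-fold difference with little spread within groups (log2 fold change 0.75 ± 0.21, edgeR adjusted p = 0.0212), but it was not called without either of the mutant libraries. The catalytic primase gene prim1 moved by a like amount without passing, from 8.04 and 6.65 to 15.1 and 10.6 (log2 fold change 0.81 ± 0.37, edgeR adjusted p = 0.103). The polymerase subunit genes pola1 and pola2 had log2 fold changes of 0.47 ± 0.27 and -0.79 ± 0.46, and neither was called. The pola2 values were 5.27 and 5.67 against 2.63 and 3.69 normalised CPM.

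The leading and lagging strand polymerases held calls in both directions. The catalytic subunit gene of polymerase ε, pole (chromosome 5, 12243423 to 12304689), was higher, at 22.6 and 26.8 normalised CPM in wild type against 43.7 and 59.06 in mutants (log2 fold change 1.06 ± 0.26, edgeR adjusted p = 0.0127). Its small subunit gene pole3 (chromosome 5, 32287966 to 32290558) was lower, at 46.3 and 60.5 against 17.8 and 12.3 (log2 fold change -1.83 ± 0.29, edgeR adjusted p = 0.00224). Both groups were separate for each gene, in opposite directions for subunits of 1 enzyme, and without mutant library 2 pole was no longer called. The partner of pole3, pole4, had 9.64 and 18.1 against 10.4 and 7.56 normalised CPM, which overlapped (log2 fold change -0.63 ± 0.40). Of the polymerase δ genes, pold2 and pold3, which encode accessory subunits, fell (log2 fold change -1.26 ± 0.43 and -1.31 ± 0.40, edgeR adjusted p = 0.0424 and 0.0288), while the catalytic subunit gene pold1 had a log2 fold change of 0.02 ± 0.30.

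The sliding clamp gene pcna (chromosome 10, 40900618 to 40905492) had 181 and 258 normalised CPM in wild type against 72.0 and 65.5 in mutants. It was 3.19-fold lower in the mutants, whose 2 values lay close together (log2 fold change -1.67 ± 0.26, edgeR adjusted p = 0.00197). Of the 5 genes of the loader that opens the clamp, rfc4 had the largest fall of all members, from 8.17 and 7.67 to 1.48 and 0.699 normalised CPM (log2 fold change -2.87 ± 0.54, edgeR adjusted p = 0.00438). It lies wholly inside sos1, which is on the other strand and was not called (log2 fold change -0.40 ± 0.33, edgeR adjusted p = 0.343), and it had no unique read, so that its value rests on reads that are not assigned to it alone. The loader gene rfc5 (chromosome 5, 12028517 to 12049529) fell from 44.6 and 74.7 to 24.2 and 18.6 normalised CPM (log2 fold change -1.48 ± 0.31, edgeR adjusted p = 0.00647). The other loader genes rfc1, rfc2 and rfc3 had log2 fold changes of -0.61, -0.10 and -0.50, none called.

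Genes that process lagging strand fragments were not called. The flap nuclease gene fen1 had 27.3 and 28.6 normalised CPM in wild type against 24.4 and 18.8 in mutants (log2 fold change -0.37 ± 0.27, edgeR adjusted p = 0.277), and the ligase gene lig1 had 36.6 and 37.3 against 50.3 and 39.4 (log2 fold change 0.28 ± 0.24, edgeR adjusted p = 0.372). Of the single-strand binding proteins, rpa1 overlapped between groups, at 85.1 and 72.2 against 76.7 and 55.2 normalised CPM, and rpa2 had a log2 fold change of -0.14 ± 0.31. The smallest subunit gene rpa3 had 3.94 and 9.18 against 2.76 and 1.50, which just missed the threshold on all reads (log2 fold change -1.63 ± 0.58, edgeR adjusted p = 0.0506) and passed it on unique reads (-1.64 ± 0.57, edgeR adjusted p = 0.0383).

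Ribonucleotide reductase makes the deoxynucleotides that replication uses, and 3 of its 4 genes fell, although the sign for rrm2_2 turned with limma on log2(TPM + 1) (0.16). The large subunit gene rrm1 had 53.7 and 51.8 normalised CPM in wild type against 23.7 and 28.6 in mutants, a 2.02-fold difference (log2 fold change -1.01 ± 0.24, edgeR adjusted p = 0.0107). The small subunit entries rrm2_1 and rrm2_2 had 14.5 and 14.9 against 4.17 and 4.10 (log2 fold change -1.83 ± 0.36, edgeR adjusted p = 0.00493) and 42.6 and 38.9 against 25.6 and 20.6 (log2 fold change -0.82 ± 0.25, edgeR adjusted p = 0.0297). Only 61.8% and 70.0% of their reads were uniquely mapped, so that reads may be divided between the 2 copies, but both were also called lower on unique reads (edgeR adjusted p = 0.00648 and 0.0407). The damage-responsive small subunit gene rrm2b was not called (log2 fold change -0.45 ± 0.26).

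The genes tipin and timeless, which encode partners that keep the fork intact when it stalls, were both lower, although timeless stood at 0.0010 with limma on log2(TPM + 1). For timeless the values were 28.2 and 24.1 normalised CPM against 13.6 and 12.9 (log2 fold change -0.98 ± 0.28, edgeR adjusted p = 0.0206). The tipin values of 13.5 and 18.4 against 8.37 and 5.72 (log2 fold change -1.18 ± 0.37, edgeR adjusted p = 0.0303) belong to a gene that lies wholly inside dis3l on the other strand and had no unique read. Both mutants lay below wild type for dis3l too, which was not called (log2 fold change -0.94 ± 0.36, edgeR adjusted p = 0.0631). The chromatin assembly subunit gene chaf1b had 10.1 and 9.54 against 8.23 and 7.80 normalised CPM and was not called (log2 fold change -0.29 ± 0.35).

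On uniquely mapped reads 50 members were tested, of which 17 were lower and 6 higher, beside 25.2% lower and 20.3% higher of the 26839 genes tested. The call was the same on both kinds of reads for 47 of these 50, with 16 called lower and 6 called higher on both. The exceptions were mcm3 and orc2_1, which lost their call, and rpa3, which gained one. At least 95% of reads were unique in 45 members, and the 4 members without a unique read (gins1, pole2, rfc4 and tipin) lie wholly inside other genes. When members of which another gene covers 20% or more of the span were left out, 16 were lower and 6 higher of 47 tested.

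Reads were counted over whole gene spans, introns included, and the level reached along long genes differed with genotype. In 99.4% of genes, including all 55 members, the listed exon length is the same as the whole gene span, and the files list 0 reads over exon junctions. Along the 1509 protein-coding genes spanning 80 to 160 kb, the 10th percentile of reads per kb, called the level of long genes here, was 8.07 and 5.23 in wild type against 15.0 and 21.9 in mutants. In wild type the 6 members called higher lay at 0.60 to 3.81 times that level, and in the mutants at 0.97 to 3.14 times their own. The ratio of these multiples in mutant over wild type was 0.82 for prim2, 0.99 for pole, 1.02 for mcm9, 1.21 for mcm6l, 1.43 for mcm3l and 1.93 for mcm8. As multiples of the level of long genes, which was itself higher in the mutants, prim2 and pole did not rise. On that scale mcm9 and mcm8 stood at 1.02 and 1.93 times their wild-type multiples. The 20 members called lower had ratios of 0.07 to 0.28, and the tested members not called had 0.15 (rpa3) to 0.97 (mcm10). The orc6 gene, with a log2 fold change of 0.03, had a ratio of 0.50. A ratio under 1 thus does not mean lower normalised CPM. The median span of the 20 lower members was 11457.5 bp (2593 to 37756 bp) and that of the 6 higher members 38689 bp (15940 to 124103 bp), with overlapping ranges.

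**Figure D3:**
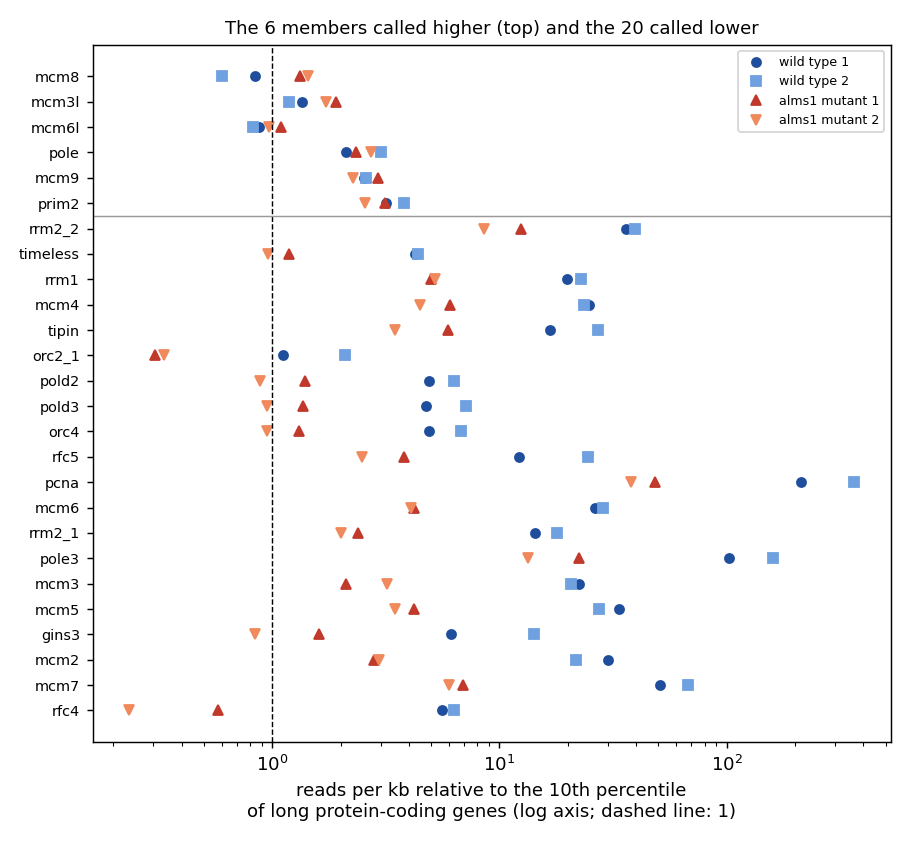
Reads per kb of each called member in each library, relative to the level of long genes in that library (10th percentile of protein-coding genes spanning 80 to 160 kb; log axis, dashed line at 1), with the 6 members called higher above the grey line and the 20 called lower under it. The higher members lie between 0.60 and 3.81 in all 4 libraries, while pcna lies at 212 and 364 in wild type and at 48.5 and 37.8 in the mutants.

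Calls across all genes varied with the same measure. Of protein-coding genes whose mean level was under 3 times the level of long genes, 30.2% were higher and 3.82% lower in the mutants, and of the 15 members in that range 5 were higher and 2 lower. At 3 to 10 times, 11.4% of 8111 genes were higher and 28.9% lower, beside 1 higher and 6 lower of 21 members. At 10 times or more, 79.2% of 4790 genes were lower with a median log2 fold change of -1.57, beside 12 of 17 members (70.6%) with a median of -1.48. The share of members called lower was therefore near that of protein-coding genes in the same range, both at 3 to 10 times (28.6% of members) and at 10 times or more. The limits of 3 and 10 were set after the values were seen. The mean was taken over the same 4 libraries that were compared, and wild-type multiples weigh more in it because their level of long genes is lower. Genes high in wild type thus tend to enter the top range and genes low there the bottom range. The trend of calls over the ranges is therefore partly built in and is a description only.

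**Figure D4:**
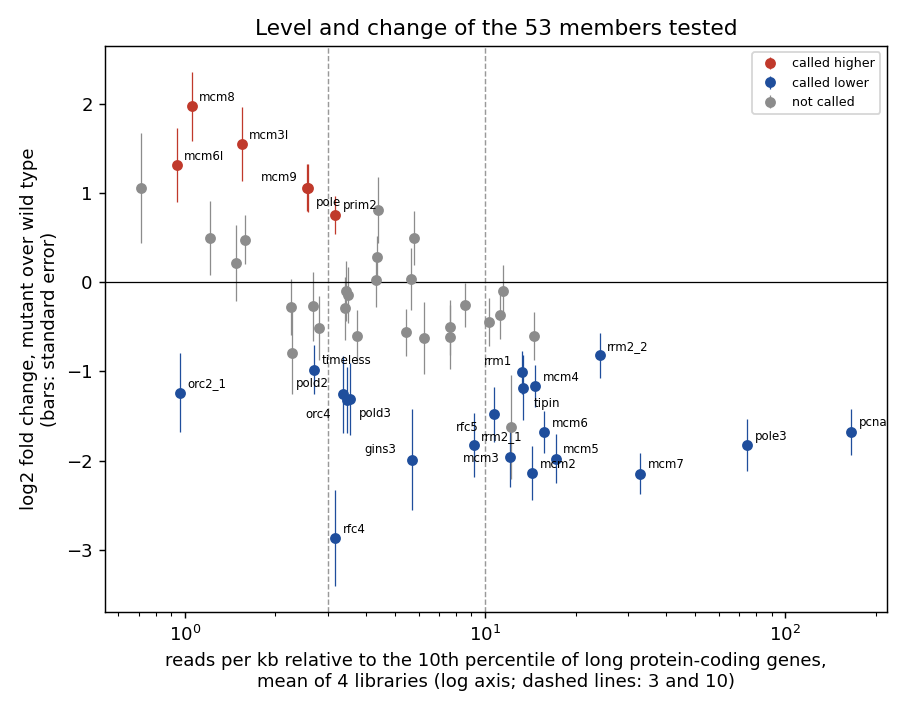
Log2 fold change of mutant over wild type (bars, 1 standard error) of the 53 members tested against their mean reads per kb relative to the level of long genes (log axis, dashed lines at 3 and 10). All 6 members called higher lie at the left and the members with the highest levels, pcna, pole3 and mcm7, lie below 0. The mean includes the libraries compared, so that both axes are not independent.

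With the level of long genes subtracted from every gene in each library and TMM computed anew, 10.8% of 23207 genes were called higher and 15.5% lower. Of 51 members tested, 7 were then lower (mcm2, mcm5, mcm6, mcm7, pcna, pole3 and rfc4) and 4 higher (mcm8, mcm9, pole and prim2), all called in the same direction before subtraction. After subtraction the log2 fold change of pcna was -1.03 and that of mcm7 -1.70, both smaller in size than before. Those of pole, mcm9 and prim2 were 1.77, 1.71 and 1.27, larger than before. In reads per kb against the level of long genes, their ratios of mutant over wild type were 0.99, 1.02 and 0.82. At a ratio near 1, what subtraction leaves of a gene still scales with that level, which was higher in the mutants. The calls of pole and mcm9 after subtraction thus cannot show a rise beyond that level. The genes rfc4 and mcm8 have no usable size there, because libraries of 1 group fell to 0 reads. Scaling to library totals alone, in place of TMM, moved the median of all genes to 0.57 and gave 29.0% of genes higher and 12.8% lower. The members' median was then -0.04, so that it lay 0.61 below that of all genes, against 0.60 with TMM, and 10 members were higher and 10 lower. Of all calls 44.0% were higher with TMM, 69.3% with library totals and 85.7% with limma on log2(TPM + 1). On that TPM scale the median of all genes was 0.69 and that of members 0.38. There 9 members were higher, and mcm7 and rfc4 lower, beside 35.2% of all genes higher and 5.87% lower. Of members not called in either fit, 11 changed sign with library totals and 17 on the TPM scale.

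The comparison was extended to cell cycle genes outside the machinery. Of 68 other S-phase genes tested, 17 were lower and 8 higher, with a median log2 fold change of -0.25. The list covers licensing control, nucleotide supply, checkpoint and chromatin duplication. It also holds cdk2, cyclin genes and genes of E2F factors. The chromatin assembly gene chaf1a fell from 41.1 and 50.2 to 15.4 and 13.0 normalised CPM (log2 fold change -1.69 ± 0.26, edgeR adjusted p = 0.0021). The transcription factor gene e2f4 and the histone chaperone gene supt16h fell as well (log2 fold change -1.84 ± 0.30 and -1.59 ± 0.26). The checkpoint kinase gene atr rose from 10.3 and 10.7 to 28.8 and 38.1 normalised CPM (log2 fold change 1.67 ± 0.28, edgeR adjusted p = 0.0029). The list thus held calls in each direction, and 25.0% of it was lower, near the 24.3% of all genes. With library totals 10 were higher and 4 lower, beside 29.0% of all genes higher and 12.8% lower. With limma on log2(TPM + 1) 13 were higher and 0 lower, beside 35.2% and 5.87% of all genes.

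Of 58 genes of mitosis, 15 were lower and 4 higher, with a median log2 fold change of -0.16. This balance turned to 13 higher and 5 lower with library totals and to 16 higher and 0 lower with limma on log2(TPM + 1). Calls over all genes turned too. With library totals 29.0% of all genes were higher and 12.8% lower, and with limma on log2(TPM + 1) 35.2% and 5.87%. With TMM the nuclear lamina genes lmnb2 and lmnb1 fell (log2 fold change -2.01 ± 0.22 and -1.32 ± 0.24), as did the kinetochore gene cenpf (-1.47 ± 0.28). The cytokinesis gene ect2 rose from 21.9 and 16.3 to 54.3 and 56.0 normalised CPM (log2 fold change 1.53 ± 0.26, edgeR adjusted p = 0.0029). The 5 markers of proliferating cells in the cell type lists (mki67, top2a, ccnb1, cdk1 and aurkb) together held 0.0191% and 0.0155% of wild-type reads and 0.0154% and 0.0146% of mutant reads. On the normalised scale 3 of these 5 were called lower, beside 24.3% of all genes tested, and the share of cycling cells was not tested. They were mki67 (log2 fold change -1.09 ± 0.22, edgeR adjusted p = 0.00586), ccnb1 (-1.44 ± 0.35, edgeR adjusted p = 0.0122) and aurkb (-1.45 ± 0.30, edgeR adjusted p = 0.00585). The values of cdk1 (-0.70 ± 0.26) and top2a (0.09 ± 0.24) did not pass. Of the members 37.7% were lower and of the mitosis list 25.9%, the latter near the 24.3% of all genes tested. The members' share does not allow for their level. In the ranges of level used above, 13.3%, 28.6% and 70.6% of members were lower, from the bottom range to the top. The shares of protein-coding genes there were 3.82%, 28.9% and 79.2%. The difference between lists was not tested.

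**Figure D5:**
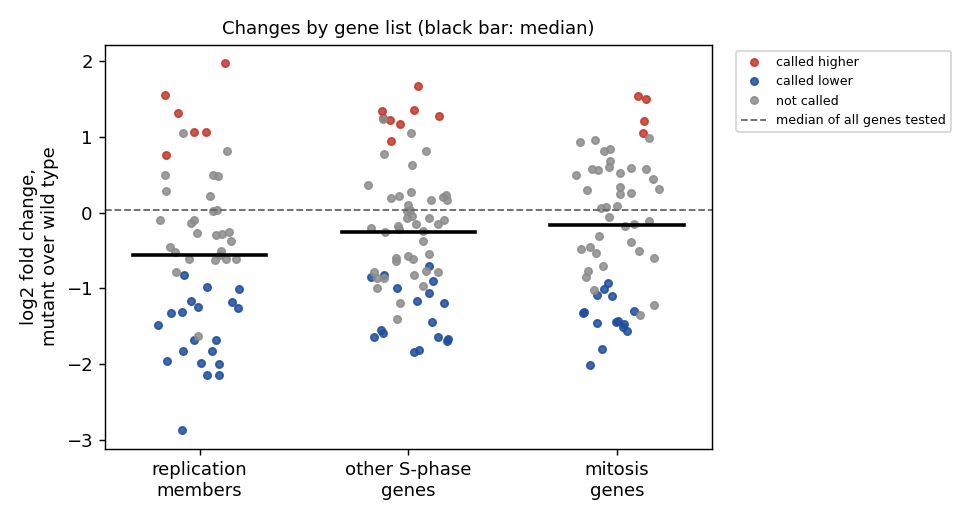
Log2 fold change of mutant over wild type of each tested gene among the 53 replication members, 68 other S-phase genes and 58 mitosis genes, coloured by call, with a black bar at each list's median and a dashed line at the median of all genes. Medians are -0.56, -0.25 and -0.16, all below the 0.03 of all genes, and every list holds genes called in both directions.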

How the data were processed

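RNA-seq of 2 wild-type and 2 alms1-/- libraries was analysed, with groups and replicate numbers taken from the sample labels. The authors aligned paired reads with CLC Genomics Server to GRCz10 (named in the submitters' processing notes), after a Nextera XT preparation that does not mark strand. The deposited counts are whole numbers of all and of uniquely mapped reads per gene. Exon reads were used where exons are listed and gene reads elsewhere. Reads classed as intron reads in the deposited counts were thus left out for genes with listed exons. These were 25.0% of gene reads for orc2_2, 19.1% for rpa3 and 12.0% for rrm2b. For other members with reads they were at most 7.62% (mcm3l). The deposited TPM and RPKM were computed by the authors' program from gene length, which covers the whole span, and the deposited gene lengths, exon numbers and positions were used as given. Chromosome numbers were read from the chromosome that holds most shared symbols in a GRCz12tu gene table. No coordinate was taken from it.

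Libraries were compared with edgeR 4.0.16 in R 4.3.3 (TMM, filterByExpr, quasi-likelihood F test, Benjamini-Hochberg adjustment over all genes tested, threshold 0.05), and each SE was computed as the absolute log2 fold change over the root of F. With 2 libraries against 2 no permutation test of 1 gene can pass 0.05, so none was used. The biological coefficient of variation was 0.340. On simulated counts, tested in the same way on 28214 genes, 19 of 50 genes raised 4-fold, 17 of 50 lowered to 0.25, 0 of 50 raised 2-fold and 1 of 50 lowered to 0.5 were called, with 1 false call. The simulation gave every gene the same variation and changed far fewer genes than were called in the data, so that its rates do not describe the test on the data. Alternatives were DESeq2 1.42.0, limma 3.58.1 on log2(TPM + 1), library totals, other filters, a replicate block, leaving out each library, protein-coding or short genes only, and subtraction of the level of long genes. Leaving out overlapped members was added after seeing the data.

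Members and lists were chosen with earlier results of these data known. Per-library values are given for mcm2 to mcm7, pcna, the 2 members of each role with the highest wild-type TPM, the 2 with the smallest p, and members called against the direction of most. Values of mcm10, of overlapping genes and of the proliferation markers were added after their values were seen. A planned description of promoter motifs was not run, since no sequences were used here. Summaries were computed in Python 3.11.15 with numpy 2.4.6, pandas 2.3.3 and scipy 1.17.1, and plots drawn by matplotlib 3.10.9.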

Additional observations from a re-analysis of the deposited data

How the results depend on the processing

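Of 702 single-gene results over the alternatives, 598 kept their side of the threshold, 90 lost and 12 gained a call, and 2 values called with TMM on all reads changed sign. These were rrm2_2 (0.16) and timeless (0.0010) with limma on log2(TPM + 1), and the cause was not tested. Another 46 results, of 21 members called in neither fit, changed sign as well and are among the 598, of which 17 came with limma on TPM, 11 with library totals and 6 with the level of long genes subtracted. With library totals, 10 members were higher and 10 lower, 4 other S-phase genes lower, and 13 mitosis genes higher and 5 lower. Of all genes 29.0% were then higher and 12.8% lower. On unique reads library totals gave 10 members higher and 8 lower. With limma on TPM, 2 members were lower, 13 other S-phase genes higher and 0 lower, and 16 mitosis genes higher and 0 lower. Of all genes 35.2% were then higher and 5.87% lower. With the level of long genes subtracted, 7 members were lower (6 on unique reads), 2 other S-phase genes higher and 6 lower, and 6 mitosis genes lower. Among genes with a span under 10 kb, a smaller set by construction, 12.8% of all tested were higher and 13.6% lower on all reads. There 1 member was higher (prim1, which is not called over all genes) and 5 were lower, with 1 and 4 on unique reads. Of other S-phase genes 1 was higher and 0 lower, and of mitosis genes 0 were higher and 1 lower. Detection in wild type fell to 23 members at a TPM of at least 5 and to 21 at an RPKM of at least 1. It was 45 members with at least 10 unique reads, 50 above the level of long genes and 54 with at least 1 read, each in both libraries.

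Leaving out 1 library at a time gave 1 to 6 members higher and 9 to 18 lower, 2 to 6 higher and 9 to 15 lower on unique reads, 4 to 11 other S-phase genes higher and 7 to 13 lower, and 1 to 12 mitosis genes higher and 7 to 14 lower. The fewest members, and the smallest share of all genes, were called without mutant library 2. Same-numbered libraries did not deviate together (r = -0.08 on all reads and -0.06 on unique reads, across genes), so the numbers were not taken to pair them. With the replicate block, 4 members were higher and 17 lower, beside 17.2% of all genes higher and 21.9% lower. On unique reads 6 members were higher and 14 lower. On all reads 11 other S-phase genes were lower with it. At 2 libraries a group the simulated test called 0 of 50 genes raised 2-fold. That rate does not carry over to the data, where far more genes were called and the adjustment was less strict. In the data prim2 was called at 1.69-fold. With 2 libraries a group, members that did not pass are still not shown to be equal.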
